A study of Pseudotaxus chienii and Amentotaxus argotaenia and Torreya grandis with 9 samples.

Results

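Twigs of Amentotaxus argotaenia were compared with twigs of Torreya grandis, both labelled as trees that do not produce taxol, the diterpenoid anticancer compound of yews. The series holds RNA-seq libraries of 3 trees of the yew family (Taxaceae), with 3 libraries per species. The 6 libraries compared here are A. argotaenia replicates 1 to 3 and T. grandis replicates 1 to 3. All came from fresh twigs, wood and needles together, of plants aged 3 years grown at 25 °C with 12 h of light and 12 h of dark. The other 3 libraries, of the taxol-producing Pseudotaxus chienii, entered the estimate of the spread and the filter that set which components were tested, and give a point of reference. Whether the 3 libraries of a species stem from different trees is not stated, and the p-values below therefore describe only how these libraries spread, which may be technical. A difference between the species and a difference in the wood and needle makeup of their twigs cannot be told apart.

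Both species are evergreen conifers with flat needles. A. argotaenia is a catkin yew, named for the pale bands of stomata under its needles, and T. grandis is the Chinese nut-yew, grown for its edible seeds. In a conifer twig the RNA comes from green needle cells, bark, cambium and young wood in one mixture, and in such bulk samples fewer cells of a type and less RNA per cell cannot be told apart. Neither species was measured against a genome. The features are genes of a Trinity assembly, a set of transcripts built from the reads alone, and Trinity places features that share stretches of sequence in 1 component. A component can therefore hold paralogs, fragments of a transcript, or the counterparts of a gene from different species. No gene name goes with a feature ID, so the labelled tissue was not checked against marker genes and components go by their IDs.

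Levels were summed over each component, which sets the species side by side even where each has its own feature. They are in TPM, a unit divided by feature length and scaled to the same total in every library. Of 42956 components in all, 10945 (25.5%) reached at least 5 TPM in each of the 6 libraries, and these are the components compared. They take in 33961 of the 88609 features. A single feature makes up 2918 of them and 8027 have 2 or more, with a median of 2 and a maximum of 16. At the limit, 10 components had a lowest library value of 5.01 TPM and were kept, and 13 had a lowest value of 4.99 TPM and were left out.

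The compared components carried most of the measured RNA in both species, and their median levels were close. They held 84.0%, 84.5% and 82.5% of the TPM in A. argotaenia replicates 1, 2 and 3, and 84.6%, 86.1% and 83.6% in T. grandis replicates 1, 2 and 3. The means were 83.6% ± 1.06 (SD, n = 3) and 84.8% ± 1.29, and the libraries of the species overlapped (exact permutation test, two-sided, p = 0.4). In P. chienii the same components held 73.6% ± 1.51 of the TPM. The level of the median component was 24.8 TPM ± 1.41 in A. argotaenia, against 25.1 TPM ± 1.56 in T. grandis, a difference of -0.233 TPM (exact permutation test, two-sided, p = 0.8). With 3 libraries against 3 the smallest p this test allows is 0.1, and a high p does not show that levels are equal. The limit of 5 TPM in all 6 libraries and the common TPM total also favour like levels.

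Libraries of a species resembled each other far more than those of the other species. Across the 10945 components, Pearson's r on log2(TPM + 1) was 0.906 to 0.971 within A. argotaenia, 0.951 to 0.973 within T. grandis and 0.641 to 0.678 between them. Components are not independent replicates and the values are a description. A. argotaenia replicate 2 stood apart: 47 components were at least 4-fold above, and 26 at least 4-fold below, both other A. argotaenia libraries. In the other 5 libraries compared, these counts were 1 to 5 above and 1 to 6 below. The median SD of a component on the log2 scale was 0.238 in A. argotaenia and 0.190 in T. grandis.

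About 1 component in 3 differed between the species, in both directions to a like extent. The call needed a difference of at least 2-fold with an adjusted p below 0.05, by limma on log2(TPM + 1) fitted over 39423 components. In all, 3480 of the 10945 components (31.8%) changed, against 42.3% of all components tested. Of these, 1668 (15.2%) were higher in A. argotaenia, against 24.8% of all tested, and 1812 (16.6%) were lower, against 17.5% of all tested. That order depended on the pseudocount, the amount added to each level before taking logs: with 5 in place of 1, 26.4% of the compared and 25.3% of all tested components changed. The filter on low values also took in P. chienii, and with 33113 components tested over the 6 libraries alone the shares were 32% and 49.2%. Among the tested components outside the set, 46.3% changed. Of those, 67.3% had the lower species under 1 TPM in all 3 libraries, which the limit of 5 TPM does not admit. Without A. argotaenia replicate 2 the count was 3580, with 1734 higher and 1846 lower.

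Fold changes centred near 0. The median log2 fold change of A. argotaenia over T. grandis was -0.03, the quartiles were -0.70 and 0.64, and 9 in 10 components lay between -1.89 and 1.84. The median size of the change, whatever its direction, was 0.67 on the log2 scale. The 95% interval lay wholly within 2-fold in 4052 components (37.0%). Another 3413 (31.2%) were neither changed nor bounded within 2-fold.

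**Figure D1:**
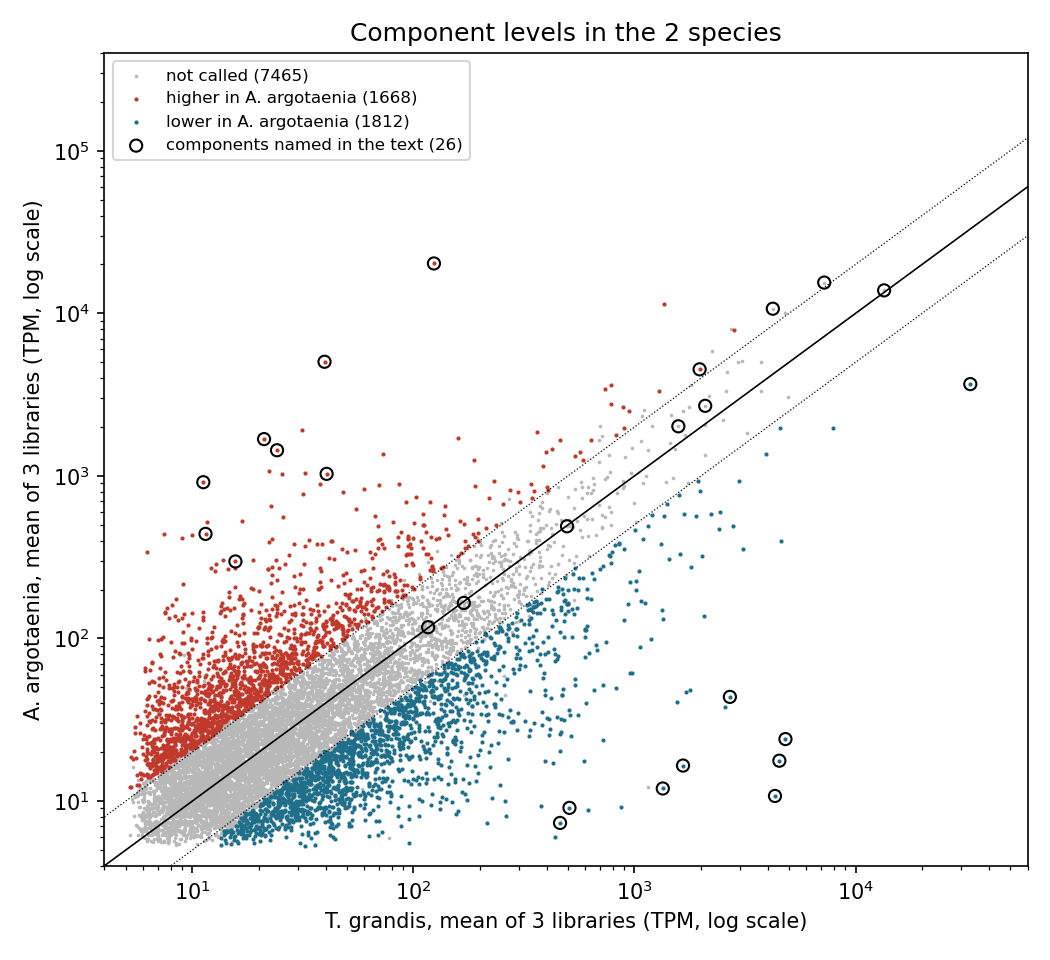
Mean level of each compared component in T. grandis (x axis) and A. argotaenia (y axis), in TPM on log scales, each from 3 libraries. Red points (1668) were called higher and blue points (1812) lower in A. argotaenia, grey points (7465) were not called, the solid line marks equal levels, the dotted lines mark 2-fold, and circles mark the components named in the text.

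The changed components held a large share of the RNA. Those higher in A. argotaenia made up 25.9% ± 1.09 of its TPM (SD, n = 3) and 6.18% ± 0.109 of the TPM of T. grandis. Those lower in A. argotaenia made up 8.02% ± 0.800 of its TPM and 33.5% ± 0.512 of the TPM of T. grandis. These shares describe sets chosen by their difference and were not tested. In P. chienii the same sets held 12.2% ± 0.105 and 13.5% ± 0.820. The 7465 components without a call held 49.7% ± 1.47 in A. argotaenia and 45.1% ± 0.837 in T. grandis.

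Large changes were few. At least 4-fold, 889 components changed (8.12%, against 24.4% of all tested), 426 higher and 463 lower in A. argotaenia. At least 8-fold, 121 were higher and 130 lower. At least 32-fold, 14 were higher and 17 lower, and at least 64-fold, 4 were higher and 8 lower. Beyond 4-fold no share over all components tested was taken, so these counts have no reference. Without regard to fold, 5876 components (53.7%) passed the adjusted p, against 50% of all tested. The 3 libraries of one species lay wholly above those of the other in 6861 components (62.7%), against 54.4% of all tested. The components tested include 2685 listed at 0 in all 6 libraries, which can meet neither condition. They lower the 50% and the 54.4%, and the shares without them were not taken.

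Calls became more frequent with abundance, mainly between the lowest classes. Components were split by their mean over the 6 libraries. Of 795 components under 10 TPM, 9 changed (1.13%), where the limit of 5 TPM in every library leaves little room for a 2-fold difference. That count rose to 21 without A. argotaenia replicate 2, to 15 without T. grandis replicate 2 and to 14 without T. grandis replicate 3. Of 7065 components at 10 to 50 TPM, 29.8% changed, and the share was 42.1% of 1622 at 50 to 100 TPM and 45.8% of 1263 at 100 to 500 TPM. It was 53.5% of 114 components at 500 to 1000 TPM and 47.7% of the 86 at 1000 TPM or more. Whatever their abundance, 31.8% of all compared and 42.3% of all tested components changed. The median size of the log2 fold change went from 0.28 in the lowest class over 0.66, 0.83, 0.94 and 1.10 to 1.13 in the highest. In the higher classes too, the limit caps the fold that a given mean allows, and a high level in 1 species raises that mean. The rise with abundance is therefore a description and was not tested.

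Direction differed among the classes. At 10 to 50 TPM, 1056 components were higher and 1051 lower in A. argotaenia. At 100 to 500 TPM, 241 were higher and 338 lower, and the median log2 fold change over that class was -0.21. The same class held 22.9% ± 1.02 of the TPM in A. argotaenia (SD, n = 3) and 25.3% ± 0.220 in T. grandis. Above 1000 TPM, 16 were higher and 25 lower, while the class median was 0.12. The spread between replicates was also wider there, with a median SD on the log2 scale of 0.372 in A. argotaenia and 0.232 in T. grandis, against 0.241 and 0.204 at 10 to 50 TPM.

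**Figure D2:**
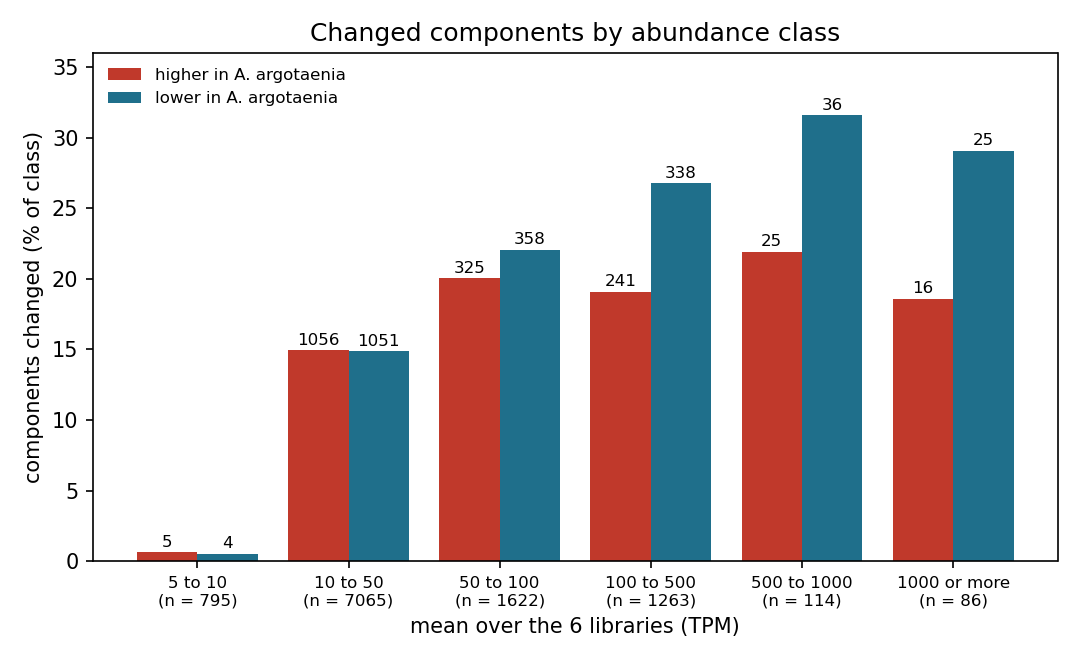
Share of the components in each abundance class (x axis, mean TPM over 6 libraries, with the number of components) called higher (red) or lower (blue) in A. argotaenia, in percent of the class; the number over each bar counts components. Higher and lower calls are even at 10 to 50 TPM (1056 and 1051), and lower calls are the more frequent at 100 to 500 TPM (338 against 241).

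The top of the abundance range was only partly shared. Of the 100 most abundant components in each species, 52 were common to both. In A. argotaenia, 14 of its 100 ranked below the first 1000 in T. grandis, and 16 of the 100 of T. grandis ranked below the first 1000 in A. argotaenia. The 10 most abundant compared components of a library held 13.2%, 12.5% and 8.95% of its TPM in A. argotaenia replicates 1, 2 and 3, and 9.63%, 10.1% and 7.99% in T. grandis replicates 1, 2 and 3. These shares overlapped (exact permutation test, two-sided, p = 0.3).

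The most abundant component on average, TRINITY_DN47601_c0, was the leading one in every T. grandis library. T. grandis replicates 1, 2 and 3 held 41352, 35301 and 22535 TPM of it, and the A. argotaenia replicates held 2459, 5970 and 2591 TPM. Different features led it, TRINITY_DN47601_c0_g4 with 82.7% in A. argotaenia and TRINITY_DN47601_c0_g2 with 99.7% in T. grandis. All A. argotaenia libraries lay below all T. grandis libraries. The log2 fold change was -3.25 (SE 0.83, limma adjusted p = 0.0099). In P. chienii its libraries ranged from 195 to 2176 TPM, and the call depended on how a fit without that species was made. With the 6 libraries alone and the same tested components the limma adjusted p was 0.418, and the call was lost. That fit took in 2685 components listed at 0 in all 6 libraries. With the filter on low values run over the 6 libraries, a choice made after the first fit was seen, it was 0.00151. TRINITY_DN39273_c3 led A. argotaenia replicates 1 and 3. Its levels were 23975, 9431 and 27460 TPM in A. argotaenia replicates 1, 2 and 3, against 196, 127 and 48.7 TPM in those of T. grandis. This gave a log2 fold change of 7.41 (SE 0.58, limma adjusted p = 1.17e-05). It was also the largest rise among components averaging 50 TPM or more. In P. chienii it was at 237.5 ± 91.8 TPM.

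The other 3 of the 5 most abundant components were not called. TRINITY_DN36656_c0 measured 16471, 11598 and 13504 TPM in the A. argotaenia libraries, against 12392, 17244 and 10788 TPM in those of T. grandis. The libraries overlapped, and the estimated change was 0.05 on the log2 scale (95% interval -0.73 to 0.83). TRINITY_DN41386_c1 had 1 library far above the rest: it was at 2877, 38470 and 5073 TPM in A. argotaenia replicates 1, 2 and 3 against 6784, 6986 and 7883 TPM in T. grandis. Its log2 fold change of 0.20 (95% interval -1.66 to 2.05) became -0.91 without A. argotaenia replicate 2, and it was called in neither fit. The A. argotaenia libraries held 17225, 9239 and 5588 TPM of TRINITY_DN53707_c4, and the T. grandis libraries held 3223, 6319 and 3136 TPM. The ranges overlapped at 5588 and 6319 TPM, and the log2 fold change of 1.27 ± 0.50 (SE) missed the threshold (adjusted p = 0.0651, limma). Leaving out A. argotaenia replicate 3 gave adjusted p = 0.0358 and leaving out T. grandis replicate 2 gave 0.0442, both limma. With the replicate number as a block its adjusted p was 0.0441, and with only the compared components in the fit it was 0.0423.

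After TRINITY_DN39273_c3, the largest rises at a mean of at least 50 TPM set high levels in A. argotaenia against low ones in T. grandis. TRINITY_DN44025_c2, a component of 16 features, reached 6033, 4507 and 4579 TPM in A. argotaenia but 43.3, 37.9 and 37.55 TPM in T. grandis. On the log2 scale the change was 6.95 (SE 0.29, limma adjusted p = 1.36e-06). The feature TRINITY_DN44025_c2_g5 held 99.0% of it in A. argotaenia and 59.5% in T. grandis. For TRINITY_DN44724_c0 the levels were 1610, 1842 and 1603 TPM in A. argotaenia, compared with 36.8, 19.4 and 6.99 TPM in T. grandis. Its log2 fold change came to 6.52 (SE 0.47, limma adjusted p = 7.21e-06). P. chienii held that component at 1653 ± 108 TPM (SD, n = 3), within the range of the A. argotaenia libraries, but through another feature: TRINITY_DN44724_c0_g6 led in A. argotaenia with 99.4% and TRINITY_DN44724_c0_g1 in P. chienii with 99.0%.

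TRINITY_DN42153_c0 was spread over several features, the leading ones holding 52.5% in A. argotaenia and 32.3% in T. grandis. Its sums were 959, 829 and 957 TPM in A. argotaenia but 16.1, 10.05 and 7.49 TPM in T. grandis. That came to 6.29 on the log2 scale (SE 0.28, limma adjusted p = 1.62e-06). TRINITY_DN43093_c3 measured 1686, 1406 and 1226 TPM in the A. argotaenia libraries, against 33.7, 25.8 and 12.9 TPM in those of T. grandis. The log2 fold change was 5.93 (SE 0.34, limma adjusted p = 2.83e-06). In P. chienii it stood at 4173 ± 1056 TPM with the same leading feature, TRINITY_DN43093_c3_g1, so T. grandis was the lowest of the 3 species there. Libraries of the compared species did not overlap at any of these rises.

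The largest falls had the same form with the species exchanged. The A. argotaenia libraries held 10.65, 8.31 and 13.25 TPM of TRINITY_DN38938_c0, and the T. grandis libraries held 3101, 4506 and 5357 TPM. This gave a log2 fold change of -8.51 (SE 0.41, limma adjusted p = 1.79e-06). For TRINITY_DN40080_c1 the levels were 17.9, 17.2 and 18.1 TPM in A. argotaenia, compared with 3873, 3538 and 6159 TPM in T. grandis. On the log2 scale the change was -7.87 (SE 0.38, limma adjusted p = 1.78e-06). In A. argotaenia 52.3% of that low level came from another feature: TRINITY_DN40080_c1_g7 stood at 9.25 ± 1.13 TPM there and at 0.080 ± 0.0436 TPM in T. grandis, where TRINITY_DN40080_c1_g6 held 99.0% of the component.

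TRINITY_DN37565_c3 had the smallest error of the 5 largest falls. Its sums were 27.1, 19.5 and 25.6 TPM in A. argotaenia but 5438, 4570 and 4449 TPM in T. grandis. Its log2 fold change came to -7.60 (SE 0.18, limma adjusted p = 4.28e-07). P. chienii was at 5308 ± 791 TPM (SD, n = 3) and led by the same feature as T. grandis, TRINITY_DN37565_c3_g2, so A. argotaenia was the low species of the 3. TRINITY_DN46043_c0 measured 6.97, 113.8 and 10.35 TPM in the A. argotaenia libraries, against 1991, 2842 and 3271 TPM in those of T. grandis. That came to -6.92 on the log2 scale (SE 0.97, limma adjusted p = 0.000353). A. argotaenia replicate 2 again stood apart, and without it the log2 fold change was -8.12. The A. argotaenia libraries held 7.29, 27.2 and 15.1 TPM of TRINITY_DN43244_c2, and the T. grandis libraries held 1294, 1808 and 1872 TPM. The log2 fold change was -6.72 (SE 0.72, limma adjusted p = 7.1e-05).

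Components of a single feature compare the same assembled sequence in both species. Of these 2918, 797 changed (27.3%), 358 higher and 439 lower in A. argotaenia, beside 31.8% of all compared components, 42.3% of all components tested and 47.5% of all features tested singly. For TRINITY_DN35343_c0 the levels were 447.5, 440 and 432.5 TPM in A. argotaenia, compared with 8.11, 13.4 and 12.9 TPM in T. grandis. This gave a log2 fold change of 5.18 (SE 0.19, limma adjusted p = 9.70e-07). Its A. argotaenia libraries differed from each other by a few percent. TRINITY_DN50155_c0 was at 401, 1847 and 841 TPM against 42.8, 40.3 and 38.4 TPM, so that its A. argotaenia libraries were spread widely and those of T. grandis lay close together. That change was 4.37 on the log2 scale (SE 0.49, limma adjusted p = 9.61e-05). TRINITY_DN46439_c1 was at 251, 289 and 353 TPM against 25.0, 10.9 and 11.1 TPM, a change of 4.25 on the log2 scale (SE 0.36, limma adjusted p = 1.91e-05). In none of these 3 did the species overlap.

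Among the single-feature falls, TRINITY_DN52751_c1 measured 14.1, 8.84 and 12.9 TPM in the A. argotaenia libraries, against 1588, 1412 and 1030 TPM in those of T. grandis. On the log2 scale the change was -6.70 (SE 0.49, limma adjusted p = 7.77e-06). TRINITY_DN46722_c0 was at 5.89, 6.65 and 9.45 TPM against 461, 504 and 416 TPM. Its log2 fold change came to -5.81 (SE 0.43, limma adjusted p = 8.33e-06). TRINITY_DN36775_c0 was at 6.33, 13.3 and 7.59 TPM against 680, 571 and 273 TPM. That came to -5.62 on the log2 scale (SE 0.52, limma adjusted p = 2.96e-05). All 3 were low in P. chienii as well, at 6.98 ± 6.33, 1.32 ± 1.65 and 1.98 ± 1.51 TPM (SD, n = 3), so T. grandis was the high species of the 3.

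**Figure D3:**
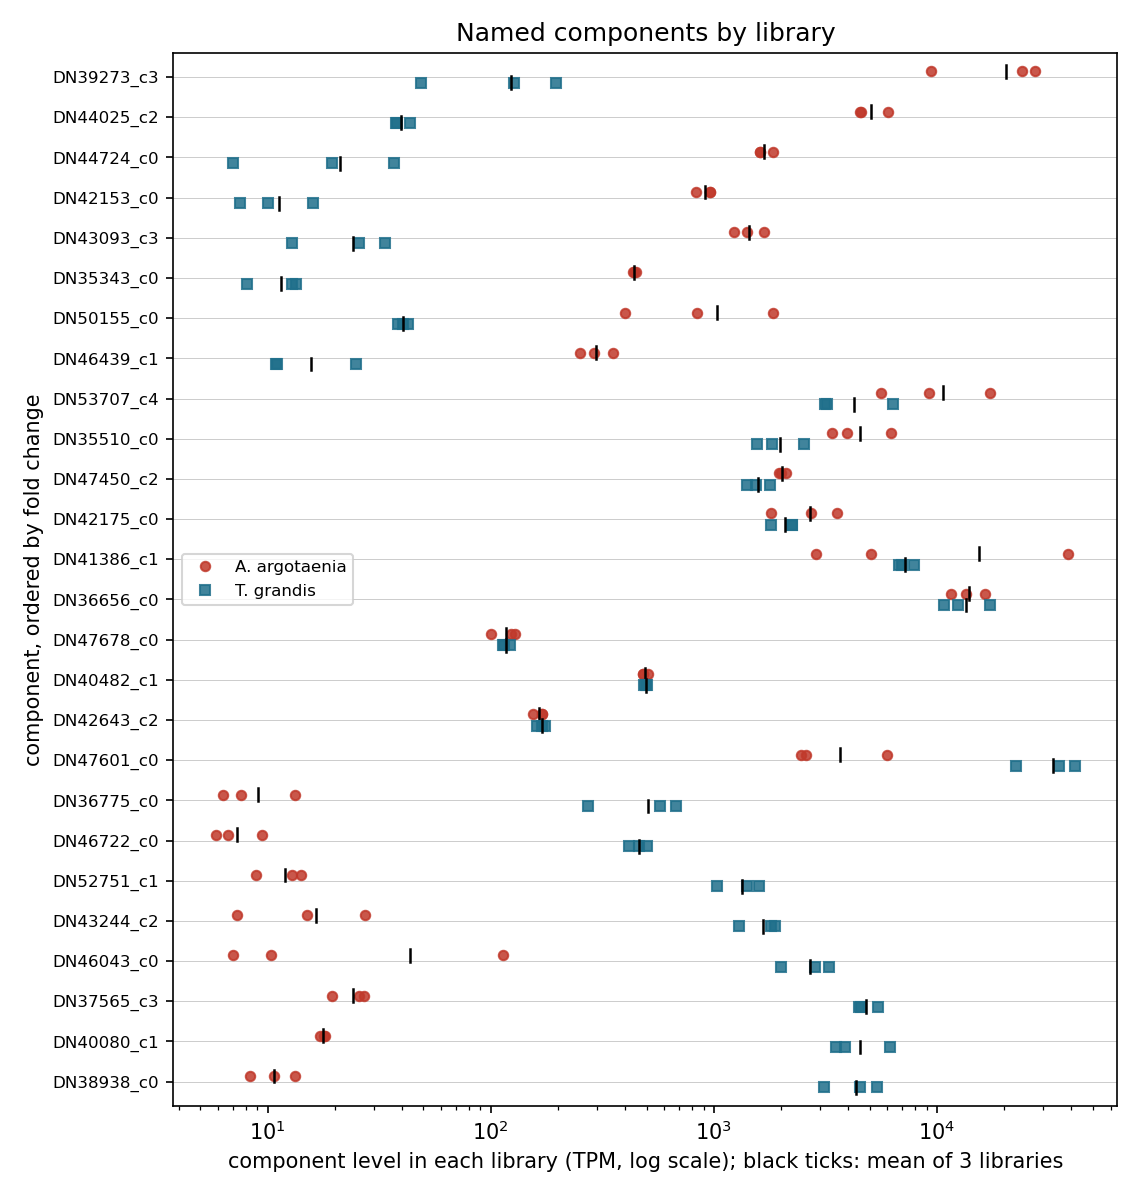
Level of each of the 26 named components (y axis, ordered by fold change) in every library, in TPM on a log x axis, with red circles for A. argotaenia, blue squares for T. grandis and black ticks for the mean of 3 libraries. The largest rises (top) and falls (bottom) leave a gap between the species, TRINITY_DN41386_c1 shows 1 A. argotaenia library at 38470 TPM, and the 3 steadiest components overlap.

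The low side of the largest changes was small beside the high side. Over the 31 components that changed at least 32-fold, the lower species stood at 0.248% to 2.97% of the higher one, with a median of 1.63%. Abundant features found in 1 species had low nonzero levels in libraries of the others. A set of 314 features of T. grandis averaged 100 TPM or more there and under 2% of that in both other species. For these the median level was 0.230%, 0.136% and 0.296% of that mean in A. argotaenia replicates 1, 2 and 3. At 274 such features of A. argotaenia it was 0.648%, 0.421% and 0.133% in T. grandis replicates 1, 2 and 3. With feature values under 2% of the highest species mean set to 0, 10884 of the 10945 components but only 8 of these 31 still reached 5 TPM in all 6 libraries. Of the 26 components named here, 15 did. Those that did not are TRINITY_DN44025_c2, TRINITY_DN44724_c0, TRINITY_DN42153_c0, TRINITY_DN38938_c0, TRINITY_DN37565_c3, TRINITY_DN46043_c0, TRINITY_DN43244_c2, TRINITY_DN35343_c0, TRINITY_DN52751_c1, TRINITY_DN46722_c0 and TRINITY_DN36775_c0, all of them among the largest changes. Where the low values come from was not tested.

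Some abundant components were level between the species. The A. argotaenia libraries held 171, 155 and 170 TPM of TRINITY_DN42643_c2, and the T. grandis libraries held 161, 170 and 176 TPM, a log2 fold change of -0.03 (95% interval -0.25 to 0.19). TRINITY_DN40482_c1 was at 480, 507 and 483 TPM against 486, 496 and 504 TPM, a log2 fold change of -0.02 (95% interval -0.27 to 0.24). TRINITY_DN47678_c0 was at 128, 101 and 123 TPM against 115, 122 and 113 TPM, a log2 fold change of 0.00 (95% interval -0.26 to 0.27). Among components averaging 100 TPM or more, the intervals of these 3 reached least far from 0, which is why they are named. All 3 stood lower in P. chienii, at 31.8 ± 1.75, 267 ± 24.2 and 63.2 ± 1.58 TPM (SD, n = 3). For TRINITY_DN40482_c1 the makeup was alike as well, but not for the others: TRINITY_DN47678_c0_g1 held 99.6% of its component in T. grandis but 52.6% in A. argotaenia, and TRINITY_DN42643_c2_g1 held 99.8% and 77.9%.

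The leading feature of a component, the one with the highest mean in a species, was often not the same in both. Among the 8027 components of 2 or more features, 5435 (67.7%) had the same leading feature and 2592 (32.3%) had different ones. With the same leading feature it held a median of 90.9% of the component in A. argotaenia and 94.7% in T. grandis. With different ones the leaders held a median of 66.2% and 68.4%. The share with a common leader fell with the number of features, from 84.4% of components with 2 features to 45.3% of those with 6 to 8 and 23.3% of the 43 with 12 to 16. Across abundance classes the share lay between 74.2% and 81.1%, but this includes single-feature components, which always have a common leader. The median number of features was 2 at 10 to 50 TPM and 4.5 at 500 to 1000 TPM. By class, the share among components of 2 or more features alone was not taken.

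Components led by different features were called somewhat more often. Of them, 976 (37.7%) changed, 494 higher and 482 lower in A. argotaenia. This compares with 1707 (31.4%) of those with a common leader and 42.3% of all components tested. Components with different leaders also had more features, a median of 4 against 3. The share called rose with that number, from 30.3% at 2 features to 39.5% at 12 to 16. The median size of the log2 fold change was 0.77 against 0.67, and 13.6% against 7.23% changed at least 4-fold. The replicate spread was wider in them as well, with a median SD on the log2 scale of 0.291 against 0.232 in A. argotaenia and 0.254 against 0.181 in T. grandis. Leaders come from the same values as the fold changes, so these differences were not tested.

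**Figure D4:**
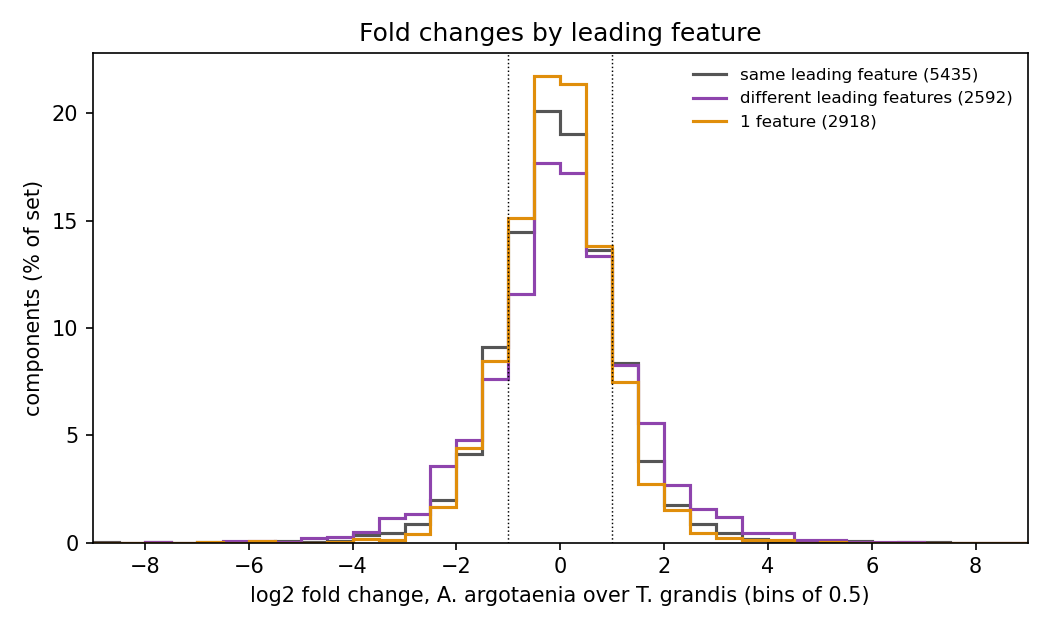
Distribution of the log2 fold change of A. argotaenia over T. grandis (x axis, bins of 0.5 on the log2 scale) as percent of the components in each of 3 sets (y axis): a single feature (2918), the same leading feature in both species (5435) and different leading features (2592). Dotted lines mark 2-fold, and the set with different leading features has the lowest peak and the widest flanks.

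Where leaders differed, they were often at a low level in the other species. The leading feature of A. argotaenia stood in T. grandis at a median of 1.06% of its own-species level, and that of T. grandis stood in A. argotaenia at 1.08%. It was under 1% in 1283 and 1287 of the 2592 components, so that about as many lay above as below. It was listed at 0 in all libraries of the other species in 409 and 511 of them. In 1533 of the 2592 both leaders passed the thresholds as single features in opposite directions. The leaders were chosen from the same libraries as the highest feature of each species, which largely fixes those directions, so the count is a description, and the 47.5% of all single features called is no reference for such pairs. The component sum was not called in 990 of these 1533, and in 419 the whole interval of its log2 fold change lay within 2-fold. Without A. argotaenia replicate 2 the 1533 became 1516. Taking every feature and not just the leaders, 2975 of the 8027 components (37.1%) held features that changed in both directions, against 21.6% of all components of 2 or more features. The limit of 5 TPM leaves out components near 0 in 1 species, which can hardly hold features changed in both directions. These shares are therefore not like for like, and the gap between them is a description.

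The strictest form of this, different leaders that each held at least 90% of the component, was found in 323 components. Of these, 122 (37.8%) changed, beside 37.7% of all with different leaders, 31.8% of all compared and 42.3% of all components tested. The most abundant of the 323 is TRINITY_DN36656_c0, whose level sums overlapped between the species. TRINITY_DN36656_c0_g2 held 99.2% of it in A. argotaenia, TRINITY_DN36656_c0_g7 held 99.1% in T. grandis and TRINITY_DN36656_c0_g1 held 99.5% in P. chienii. TRINITY_DN42175_c0 came to 3550, 1810 and 2739 TPM in A. argotaenia but 2229, 2244 and 1795 TPM in T. grandis, with overlap and an estimated change of 0.32 on the log2 scale (95% interval -0.23 to 0.88). In it TRINITY_DN42175_c0_g6 stood at 2589 ± 873 TPM in A. argotaenia but 11.2 ± 8.37 TPM in T. grandis, and TRINITY_DN42175_c0_g7 at 3.42 ± 1.72 TPM and 1994 ± 250 TPM (SD, n = 3). Another feature, TRINITY_DN42175_c0_g1, was present in both, at 101 ± 9.49 TPM and 66.1 ± 7.15 TPM.

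For TRINITY_DN47450_c2 the levels were 2106, 1998 and 1957 TPM in A. argotaenia, compared with 1789, 1544 and 1405 TPM in T. grandis. Its libraries did not overlap, but the log2 fold change of 0.36 ± 0.16 (SE) missed the threshold (adjusted p = 0.0901, limma). TRINITY_DN47450_c2_g3 carried 98.1% of it in A. argotaenia, TRINITY_DN47450_c2_g4 carried 96.8% in T. grandis and TRINITY_DN47450_c2_g5 carried 98.0% in P. chienii. TRINITY_DN35510_c0 measured 3399, 6249 and 3937 TPM in the A. argotaenia libraries, against 1818, 1559 and 2536 TPM in those of T. grandis, with no overlap. The log2 fold change was 1.18 (SE 0.40, limma adjusted p = 0.0356). That call was lost without A. argotaenia replicate 2 or 3, without T. grandis replicate 1 or 2, after quantile normalization, and with the 6 libraries alone over the same tested components, at limma adjusted p from 0.0697 to 0.226. With the filter run over the 6 libraries it was kept, at 0.0197. Its leaders were TRINITY_DN35510_c0_g1 with 99.0% in A. argotaenia and TRINITY_DN35510_c0_g2 with 97.3% in T. grandis. TPM divides by the length of each feature, so where leaders differ the component sums also rest on how completely each feature was assembled, which was not tested.

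**Figure D5:**
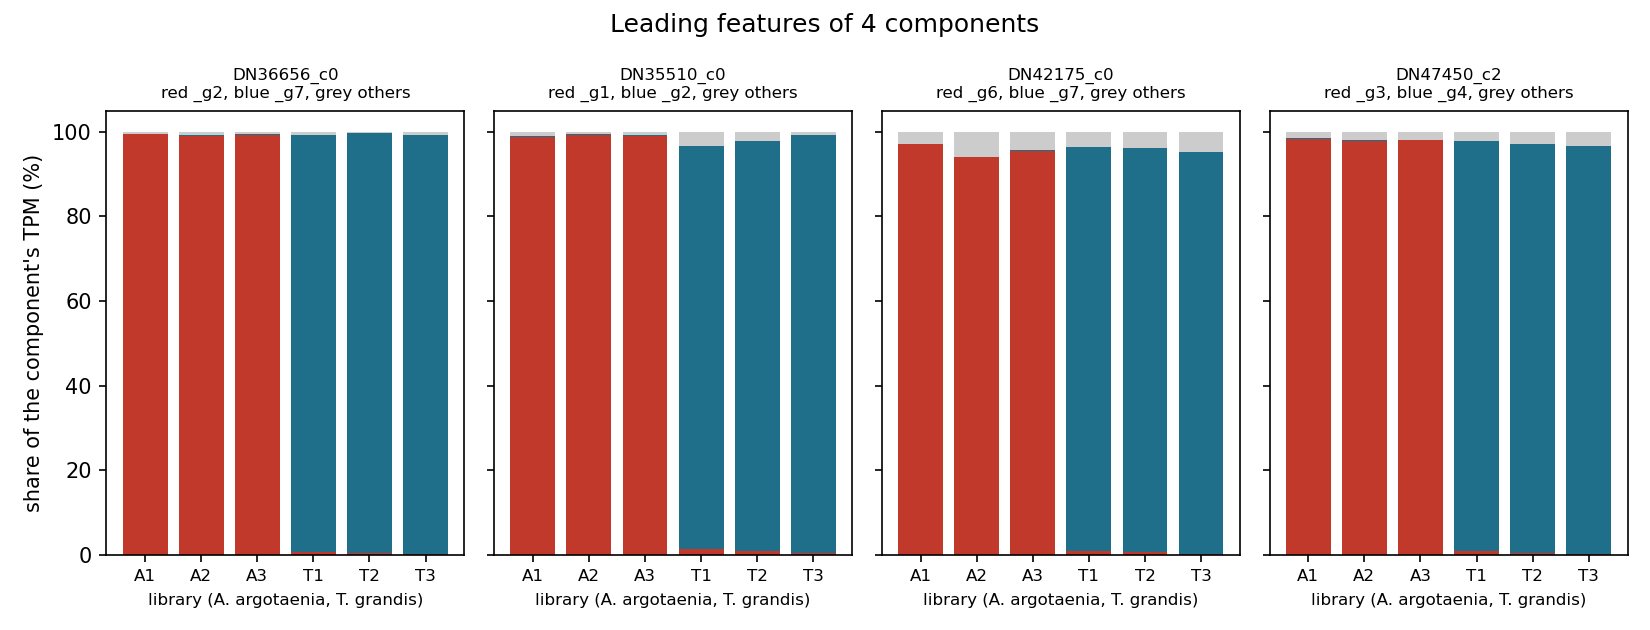
Share of the component's TPM held by the leading feature of A. argotaenia (red), that of T. grandis (blue) and all others (grey) in the 6 libraries, in percent, for the 4 most abundant components with different leaders of at least 90% each. Red fills the A. argotaenia libraries and blue the T. grandis libraries in all 4 components.

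Most compared components were also present in P. chienii. At least 5 TPM in all 3 of its libraries was reached by 8888 of the 10945 (81.2%), while 726 were under 1 TPM in all 3 and 68 were listed at 0. Calls between A. argotaenia and T. grandis were about as frequent in both groups: 2796 of the 8888 changed (31.5%) and 684 of the other 2057 (33.3%). Both shares were near the 31.8% of all compared components, beside 42.3% of all components tested. Of the 2592 components with different leaders, 1929 had a mean of at least 5 TPM in P. chienii. It was led there by yet another feature in 1021 of them, by the A. argotaenia feature in 443 and by the T. grandis feature in 465.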

How the data were processed

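Expression was deposited as TPM with 2 decimals; this unit is inferred from the library sums, 999890 to 999947. Trinity is named per the labels, and no source used here gives the quantifier, its version or filters. TPM keeps no read count, so depth is unknown and no counting interval is given.

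TPM was summed within components, that is, over IDs equal up to the final gene number. Species were compared on log2(sum + 1) by limma 3.58.1 under R 4.3.3, trend included, two-sided, over 39423 components with at least 1 TPM in at least 3 of the 9 libraries, with species as the only term and Benjamini-Hochberg adjustment. Fold changes on this scale understate those of low components. The step was tested on simulated data. Exact permutation tests compared library values. Other tables used Python 3.11.15, pandas 2.3.3, numpy 2.4.6 and scipy 1.17.1.

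Named components were the 5 most abundant; the 5 largest rises and falls called at a mean of at least 50 TPM; the 3 largest of each among single-feature components at 20 TPM; the 4 most abundant with different leaders of at least 90%; and the 3 nearest to no change at 100 TPM. Components, lists and rules were chosen with earlier results of these data known. Alternatives were other pseudocounts, filters, limits, scalings, libraries and folds, a replicate block, single features, and low values set to 0. The planned fit of the 6 libraries alone was repeated with its own filter on low values after its result was seen.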

Additional observations from a re-analysis of the deposited data

How the results depend on the processing

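The number of changed components lay between 2886 and 3580 under the 17 other fits (pseudocounts, filters, scalings, no trend, 6 libraries alone in 2 forms, replicate block, low values set to 0, 1 library left out), with 45.0% to 50.3% of them higher in A. argotaenia. The 6 libraries alone gave 3365 as planned, with 2685 components at 0 in all 6 in the fit, and 3501 with the filter run over the 6 libraries (33113 tested), a form added after the first was seen; the planned form lost the calls of TRINITY_DN47601_c0 and TRINITY_DN35510_c0 and the added form kept both. With a pseudocount of 5, 9978 of all tested components changed (25.3%, against 26.4% of those compared), which turned round the order of 42.3% and 31.8%. A limit of 1 TPM gave 5974 changed components and a limit of 20 TPM gave 1152. No minimum fold gave 5876, and at least 4-fold gave 889 here and 9636 over all tested. The difference in the median level per library, -0.013 on the log2 scale, was 0.001 with a limit of 1 TPM and -0.052 to 0.036 with 1 library left out. The difference in the share of TPM, -1.15 percentage points, was 0.926 with a limit of 20 TPM and -1.74 to -0.462 with 1 library left out. A common leading feature was found in 76.3% of all compared components, 84.0% of the 9140 with 1 leader throughout the libraries of each species, 78.9% at 20 TPM and 67.7% of those with 2 or more features. The cause was not tested. The deviations of same-numbered libraries correlated at 0.072, -0.0364 and -0.0876, and those of differently numbered libraries at -0.119 to 0.133. Whether the replicate numbers pair samples cannot be told from such values. With the number as a block 3453 components changed. Of 442 values of named components, 431 kept their call status, 7 lost a call (TRINITY_DN35510_c0 in 6 and TRINITY_DN47601_c0 in 1) and 4 gained one (TRINITY_DN53707_c4). With the sign compared only where either fit made a call, 0 reversed. Uncalled values did change sign. TRINITY_DN41386_c1 went from 0.20 to -0.91 without A. argotaenia replicate 2, and TRINITY_DN36656_c0 from 0.05 to -0.42 after quantile normalization. A kept call does not mean a kept size. With feature values under 2% of the highest species mean set to 0, TRINITY_DN43244_c2 went from -6.72 to -10.68. In that fit TRINITY_DN39273_c3 went from 7.41 to 9.53, while TRINITY_DN50155_c0 stayed at 4.37.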
